A study of Arabidopsis thaliana with 4 samples.

Results

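Among the target genes read here, 89 *Arabidopsis thaliana* genes outside the study's flower list carried strong MYC-bZIP17 peaks. The flower list holds genes that heat raised in wild-type flowers but not in *bzip17* mutant flowers. Genes lowered by heat, or raised in both, are not on it. Absence from it therefore does not mean that a heat response is independent of AtbZIP17. It also came from another tissue and heat treatment than the peaks. The 89 genes were chosen by their binding signal. A gene was taken when the highest pileup among the peaks listed for it reached a mean of at least 150 fragments over 3 replicates, and when it was neither on the flower list of 1380 genes nor among 14 loci left out by name. The pileup is the number of sequenced fragments stacked at the summit of a peak. Of 842 genes named in the 1389 lines read from the study's target table, 103 reached this limit (12.2%), of which 7 were on the flower list and 7 were among the loci left out, so that 89 genes, or 10.6% of those listed, remained. The lines read made up 52.8% of that table. Its other 1240 lines were not analysed here, so the 89 genes are those of about this share of the table, and genes in the rest may meet the same rule or share these peaks.

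The peaks came from chromatin immunoprecipitation sequencing (ChIP-seq), in which fragments of fixed chromatin are pulled down with an antibody and sequenced, in 3 anti-MYC samples and 1 input sample without antibody. All 4 samples were 13-day-old seedlings of a *35Spro::MYC-bZIP17* line in the Col-0 background, grown at 22 °C and then held at 42 °C for 2 h. The tagged protein was expressed from the 35S promoter, which is active in most tissues, in whole seedlings, and neither unheated seedlings nor plants without the tag were among these samples. No source says that the 3 samples came from separate cultures, so their spread may be technical. The number of reads per sample was not stated, and the depth behind a pileup is therefore unknown. Peak lists hold no expression values, so the tissue label could not be checked against marker genes.

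AtbZIP17 is a basic leucine zipper transcription factor that is made as a protein of the endoplasmic reticulum (ER) membrane. When unfolded proteins build up in the ER, it moves to the Golgi and is cleaved, and the released part enters the nucleus. Its relatives AtbZIP28 and AtbZIP60 are the main activators of the unfolded protein response, whose genes encode chaperones, folding enzymes and components of ER-associated degradation. AtbZIP17 is known from salt stress, and its part in the canonical unfolded protein response is not settled.

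The mean pileups of the 89 genes ran from 150.3 to 589 fragments with a median of 208. Counted by replicate, 77 genes reached 150 fragments in replicate 1, 86 did so in each of the other replicates, and 72 did so in all 3. A mean of at least 200 fragments was found for 51 genes, of at least 300 for 25 and of at least 400 for 3. The other 682 genes off the flower list had median pileups of 51.5, 55 and 53 in the 3 replicates. All these levels follow from the rule and are descriptions without a test. At the lower end the values lay close together on both sides of the limit. *AT2G34250*, which encodes a SEC61 alpha subunit, had 136, 164 and 151 fragments (mean 150.3 ± 14, SD, n = 3) and the zinc finger gene *ZF1* (*AT5G67450*) had 145, 161 and 150 (152 ± 8.19). *EXL2* (*AT5G64260*), just outside, had 142, 157 and 150 (149.7 ± 7.51), and *PDH-E1 BETA* (*AT1G30120*) and its neighbour *AT1G30130* had 133, 160 and 152 (148 ± 13.9). The limit thus falls within a continuous range, and the genes next to it differ by less than their replicates do.

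**Figure D1:**
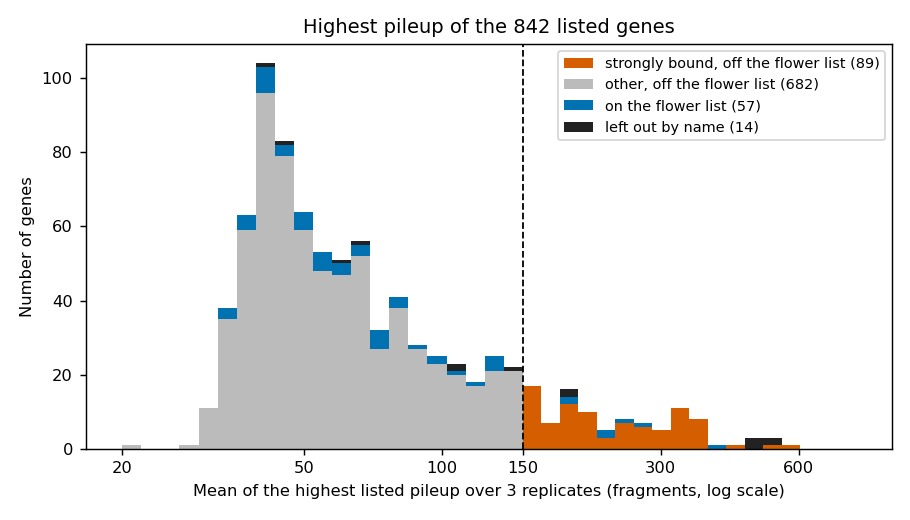
Number of listed genes by the mean of their highest listed pileup over 3 replicates (fragments, log scale), stacked by set. The dashed line marks the limit of 150 fragments, above which the 89 genes lie together with 7 flower-list genes and 7 of the 14 loci left out.

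The genes were also chosen on a pair of replicates, and their pileup was read in the replicate left out. That replicate was not wholly separate, because the target table keeps only genes with a peak in all 3 replicates. When genes off the flower list were chosen on replicates 2 and 3 alone, 96 genes were taken, and 75 of them (78.1%) reached 150 fragments in replicate 1, against 11.5% of all listed genes. Their median in replicate 1 was 187 fragments, while that of all listed genes was 55. Choosing on replicates 1 and 3 took 82 genes, of which 74 (90.2%) reached the limit in replicate 2, against 12.8% of listed genes, with a median of 255.5 fragments against 60. Choosing on replicates 1 and 2 took 87 genes, of which 83 (95.4%) reached it in replicate 3, against 14.1%, with a median of 229 fragments against 57. High pileup in any pair of replicates thus recurred in the replicate left out for most genes. A single input library also served all 3 lists. Genes with the same peaks were counted separately, and 87, 77 and 86 of the chosen genes also met the rule on all 3 replicates. The shares are therefore descriptions without a test.

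Many of the genes lay over the same peak. Joining genes whose strongest peaks overlap left 67 binding regions, of which 47 held 1 of the genes, 18 held 2 and 2 held 3. The strongest peaks of all 3 replicates were shared with another listed gene for 43 of the 89 genes (48.3%), against 32.4% of all listed genes and 30.9% of the other genes off the flower list. The study linked a peak to each gene whose upstream 2 kb it reached, so that a peak between genes can be named for both, and these data cannot say which of them the binding concerns. Of the 20 regions with several of the genes, 17 had at least 2 of them in the RefSeq annotation, and in 11 of these the genes were next to each other in its order. In the largest groups, *AT2G36290*, *AT2G36300* and *FACE2* (*AT2G36305*) shared 1 peak per replicate, and so did *LEC1* (*AT1G21970*), *AT1G21975* and *PIP5K1* (*AT1G21980*). In 3 cases the partner was not among the 89. *RBOHB* (*AT1G09090*), an NADPH oxidase gene, shared its peaks with the chaperone gene *BiP3* (*AT1G09080*), which was left out by name. The tRNA gene *AT5G02815* shared its peaks with the clock gene *PRR7* (*AT5G02810*), and *AT1G20890* shared its peaks with *AT1G20880*, both partners being on the flower list.

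Of the 89 loci, 85 were found in the RefSeq gene table, and 82 of these were protein coding. The remaining 3 were the long noncoding RNA *AT4G39838*, the pseudogene *AT1G29650* and the tRNA *AT5G02815*. Chromosomes 1 to 5 carried 24, 18, 15, 11 and 21 of the genes. As a share of the genes listed on each chromosome this was 10.4%, 16.7%, 7.21%, 9.17% and 12%. The role lists below were drawn up with the genes' names and values known, hold 51 of the 89 genes, and are a means of description only.

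Genes for protein folding, translocation and degradation in the ER numbered 7, in 7 regions, with a median pileup of 251 fragments against 208 over all 89 genes. The protein disulfide isomerase gene *PDIL2-2* (*AT1G04980*) was the highest of them, with 290, 350 and 332 fragments (324 ± 30.8) and a summit at chromosome 1 position 1416245 in replicate 1 (TAIR10). *AT3G51980*, which encodes an armadillo repeat protein, had 325, 311 and 326 fragments (321 ± 8.39), and its peaks were shared with the protein kinase gene *AT3G51990*. The 3 replicates of *PDIL2-2* and *AT3G51980* overlapped in pileup, so their order is not set by these data. *DER1* (*AT4G29330*), the gene of a derlin of ER-associated degradation, had 230, 290 and 288 fragments (269 ± 34.1). *AT4G16660*, the gene of an ER protein of the HSP70 family, had 243, 262 and 248 (251 ± 9.85). *SEC61 BETA* (*AT2G45070*), the gene of a subunit of the channel through which new proteins enter the ER, had 180, 214 and 218 (204 ± 20.9), and shared its peaks with *AT2G45060*. *UNE5* (*AT2G47470*), the gene of another protein disulfide isomerase, had 182, 197 and 200 (193 ± 9.64). These 4 genes lay between *PDIL2-2* and the SEC61 alpha gene, which closed the list at the limit of the rule. *DER1* and *AT4G16660* overlapped in their values, as did *SEC61 BETA* and *UNE5*.

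The summits of these genes lay close together in the 3 replicates. For *UNE5* they were at chromosome 2 positions 19481296, 19481282 and 19481295, a span of 14 bp, and for *AT4G16660* at chromosome 4 positions 9376613, 9376630 and 9376624, a span of 17 bp. The widest span was that of *DER1*, at chromosome 4 positions 14444753, 14444718 and 14444780, or 62 bp. All 7 genes thus had the same peak in each replicate to within 62 bp.

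Transcriptional regulators were the largest role list, with 14 genes in 14 regions and a median pileup of 268 fragments. *MYB11* (*AT3G62610*), the gene of an R2R3-MYB factor that activates flavonol synthesis, had the highest pileup of all 89 genes, with 485, 664 and 617 fragments (589 ± 92.8). Its peak ranked 6th, 3rd and 3rd by pileup in the full lists of 4523, 4491 and 4330 peaks, and its summits were at chromosome 3 positions 23153566, 23153556 and 23153552. *MYB11* lies next to the flower-list gene *ERDJ3B*, as described below. *OXS2* (*AT2G41900*), a zinc finger gene of stress tolerance, followed within this list with 368, 469 and 421 (419 ± 50.5). Its lowest replicate was below the highest replicate of *AGL29*, whereas all 3 values of *MYB11* were above all 3 of *OXS2*.

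*GATA5* (*AT5G66320*), the gene of a GATA zinc finger factor, had 343, 354 and 357 fragments (351 ± 7.37), and the MADS-box gene *AGL29* (*AT2G34440*) had 288, 369 and 364 (340.3 ± 45.4). *PIF7* (*AT5G61270*), whose product is a bHLH factor of growth under shade and warmth, had 278, 316 and 349 (314 ± 35.5). *SPL11* (*AT1G27360*), a SQUAMOSA promoter-binding-like gene, had 294, 276 and 308 (293 ± 16.0), and *LEC1*, the gene of an NF-YB factor of embryo development, had 242, 300 and 294 (279 ± 31.9). The values of *SPL11* were read at summits far apart, as described below, so its mean and SD do not describe a single binding place. Neighbours in this order overlapped in their replicate values. The remaining 7 regulators had means of 152 to 257 fragments. They were the clock coactivator genes *LNK1* (*AT5G64170*, 257 ± 19.7) and *LNK4* (*AT5G06980*, 156 ± 22.5), the B-box genes *BBX28* (*AT4G27310*, 255 ± 7.21) and *BBX29* (*AT5G54470*, 199.3 ± 13.1), *MYB56* (*AT5G17800*, 183 ± 11.6), the auxin response factor gene *ARF2* (*AT5G62000*) and *ZF1*. *LNK4* shared its peaks with *AT5G06970*, which encodes a protein known as PATROL1 that directs a proton pump to the plasma membrane.

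Signalling genes numbered 12 in 11 regions, with a median pileup of 232 fragments. *AT1G73660*, known as *SIS8* and coding for a Raf-like MAP kinase kinase kinase, and the MAP kinase gene *MPK15* (*AT1G73670*) shared a peak of 329, 419 and 387 fragments (378 ± 45.6), with summits at chromosome 1 positions 27699122, 27699133 and 27699143. The cytoplasmic receptor-like kinase gene *APK2B* (*AT2G02800*) had 311, 420 and 392 (374 ± 56.6), and *CMPG1* (*AT1G66160*), a gene of a U-box ubiquitin ligase, had 281, 377 and 355 (338 ± 50.3). *AT3G51990* had the values of *AT3G51980*, with which it shared its peaks. In the *SIS8*, *APK2B* and *CMPG1* regions replicate 1 was lower than both other replicates. The others ranged from 158 to 255 fragments, and included *RBOHB* (187, 200 and 195), the phosphatase gene *TOPP3* (*AT1G64040*, 187, 193 and 186), the jasmonate-responsive gene *JRG21* (*AT3G55970*, 188 ± 11.8) and the remorin gene *AT3G57540* (208 ± 23.7).

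Genes of the secretory pathway and cell wall numbered 8 in 7 regions, with a median of 221 fragments. *p24delta5* (*AT1G21900*), the gene of a cargo receptor that cycles between ER and Golgi, had 347, 399 and 376 (374 ± 26.1). The region of *FACE2*, a CAAX protease gene, and *AT2G36300*, the gene of a membrane protein of the Yip1 family, had 313, 375 and 347 (345 ± 31). All 3 summits of *p24delta5* fell at chromosome 1 positions 7692472 to 7692501, and those of *FACE2* at chromosome 2 positions 15214339 to 15214367. *ARA-2* (*AT1G06400*), the gene of a Rab GTPase, had a mean of 233 ± 21.7, and *MUR3* (*AT2G20370*), the gene of a xyloglucan galactosyltransferase, had 209 ± 25.9.

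Genes of lipid and phosphoinositide metabolism numbered 7 in 7 regions, with a median of 243 fragments. *LPPgamma* (*AT5G03080*), a lipid phosphate phosphatase gene, shared a peak of 304, 378 and 359 fragments (347 ± 38.4) with the importin alpha gene *IMPA-9* (*AT5G03070*). *PIP5K1*, the gene of a phosphatidylinositol phosphate kinase, shared the peak of *LEC1* with 242, 300 and 294. *NHO1* (*AT1G80460*), the glycerol kinase gene, had a mean of 190.3 ± 13.1, and *DGD1* (*AT3G11670*), the digalactosyldiacylglycerol synthase gene, 167 ± 4.62. The trehalose and sucrose list had 3 genes. The invertase gene *A/N-InvC* (*AT3G06500*) had 299, 353 and 328 fragments (327 ± 27.0). *TPS11* (*AT2G18700*), a gene of the trehalose phosphate synthase family, had 227, 255 and 253 (245 ± 15.6), and its relative *TPS7* (*AT1G06410*), which shared its peaks with *ARA-2*, had 213, 256 and 229 (233 ± 21.7). The values of *A/N-InvC* were above all those of both *TPS* genes, whose own values overlapped.

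The 38 genes in no role list had a median pileup of 198 fragments. Among them were 10 of the 30 highest genes, named here after their values were seen. *AT1G56320* was second of all 89 with 474, 582 and 566 fragments (541 ± 58.3) and summits at chromosome 1 positions 21092783, 21092775 and 21092834. All its values were above the highest value of *OXS2*. The others were *AT1G73400* (356 ± 20.1), *IMPA-9*, *AT2G36290*, *AT3G08960* (327 ± 32.8), *AT1G72270* (317 ± 16.4), *ABCI19* (*AT1G03905*) and *AT1G03910* with a shared peak (307 ± 31.3), *AT3G49070* (288 ± 21.2) and *AT1G21975*. Lower in this set were *BIO1* (*AT5G57590*), a biotin synthesis gene (174 ± 7.09), *SAMDC* (*AT3G02470*), an S-adenosylmethionine decarboxylase gene (154 ± 10.3), and the deubiquitinase gene *UBP13* (*AT3G11910*, 155 ± 6.66).

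**Figure D2:**
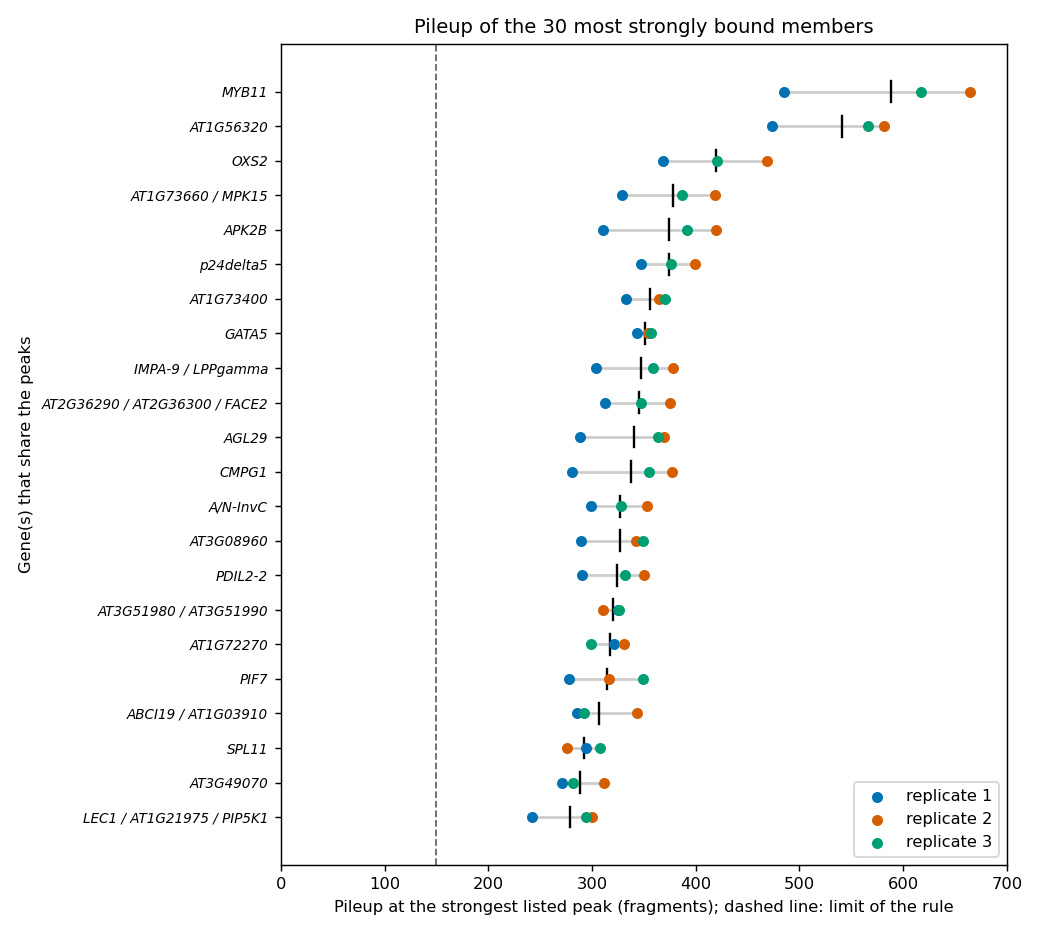
Pileup (fragments) at the strongest listed peak of the 30 highest genes, 1 row per shared peak, with a point per replicate and a black bar at the mean. *MYB11* and *AT1G56320* stand above the rest in all 3 replicates, replicate 1 is the lowest point in most rows, and the dashed line marks 150 fragments.

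Fold enrichment, the ratio of the pileup to the local background estimated by the peak caller, had a median of 12.9 over the 89 genes and of 3.05 over the 682 other genes off the flower list. In the single replicates the medians over the 89 genes were 12.0, 13.8 and 14.3. A mean of at least 10-fold was found for 60 of the 89 genes, in 46 regions, against 8.43% of all listed genes. Since the ratio contains the pileup that chose the genes, this difference follows from the rule. *MYB11* was the highest with 22.1, 31.6 and 30.5 (28.1 ± 5.19), followed by *AT1G56320* (23.6 ± 4.01). At or above 20-fold were 11 genes in 8 regions.

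Across regions the order by fold enrichment mostly followed that by pileup (Spearman's rho = 0.920 over 67 regions, which share the lists and the input). Since the ratio contains the pileup, much of this order follows from its definition. Among the exceptions were regions with a high or a low background. The local background, taken as pileup divided by fold enrichment, had a median of 18.2 fragments and ran from 14.2 at *TPS11* to 27.8 at *AT3G16990*. *AT3G16990*, chosen for its background, thus had 179 ± 18.2 fragments and the lowest fold enrichment of the 89 genes (6.49 ± 1.04). *OXS2* ranked 3rd by pileup and 18th by fold enrichment (17.3 ± 3.18), with a background of 24.5. *TPS11* with a lower pileup had a fold enrichment of 17.3 ± 1.53. By role list the median fold enrichment was 17.3 for the trehalose and sucrose genes, 15.6 for the regulators, 14 for signalling, 13.7 for the secretory genes, 13.5 for the lipid genes and 13.1 for the ER genes. The ranges of the lists overlapped, and no difference between them was tested.

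**Figure D3:**
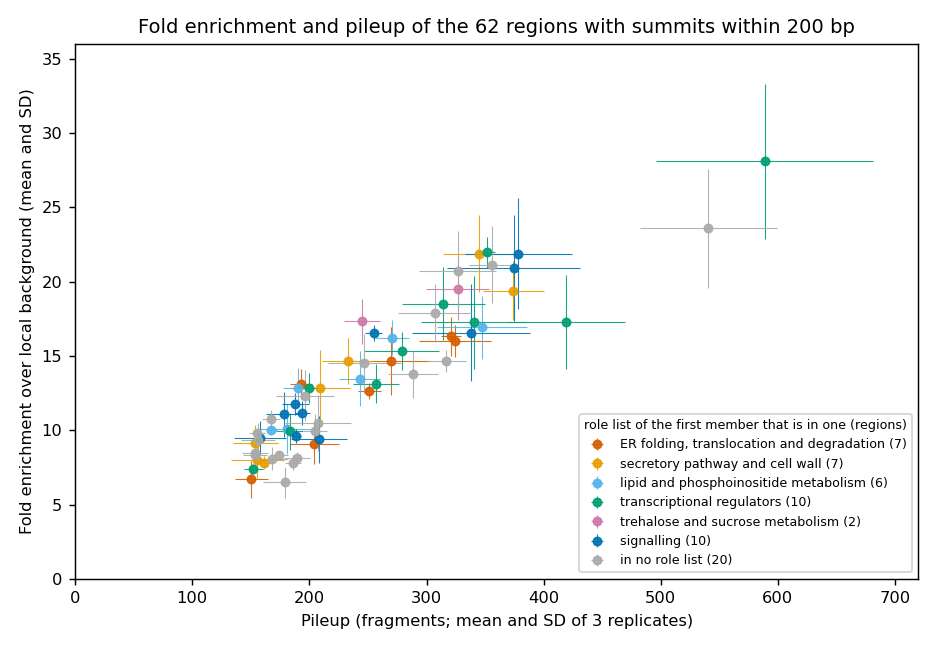
Mean fold enrichment over the local background against mean pileup (fragments) for the 62 regions whose 3 summits lay within 200 bp, with SD of 3 replicates on both axes and colours by role list. *MYB11*, at 589 fragments and 28.1-fold, is at the upper right, and *OXS2*, at 419 fragments and 17.3-fold, lies below the course of the other regions.

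The replicates differed in level in a similar way from region to region. Replicate 1 was the lowest in 53 of 67 regions (79.1%), against 41.8% of the peak sets of the other genes off the flower list. Replicate 2 was the highest in 46 regions (68.7%) and replicate 3 in 18. The median ratio of replicate 2 to replicate 1 was 1.15 in the 67 regions and 1.06 in the other sets. Depth was unknown, so its part in this shift was not tested. Within the 62 regions with close summits the SD over replicates was 8.33% of the mean at the median, from 2.01% at *TOPP3* to 15.8% at *MYB11*. The order of these 62 regions was similar in each replicate, with Spearman's rho of 0.942 between replicates 1 and 2, 0.942 between 1 and 3 and 0.972 between 2 and 3. Over all 67 regions, among them those with a weak listed peak in some replicate, rho was 0.880, 0.810 and 0.842.

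Position was not used directly by the rule and can be compared between replicates. It is not independent of the rule, because a gene linked to different places in different replicates can have a lower mean pileup. *AT3G51960*, with a mean of 134 fragments and outermost summits 2539 bp apart, was thus among the other genes. The strongest peaks of the 3 replicates overlapped for 86 of the 89 genes (96.6%), against 90.4% of all listed genes and 89.3% of the other genes off the flower list, so the share with any overlap was near that background. Overlap of at least 50% of both peaks was found for 79 genes (88.8%), against 54.1% of the other genes. All 3 summits fell within 200 bp for 82 of the 89 genes, which form 62 of the 67 regions (92.5%), against 74.9% of all listed genes. In the other genes off the flower list this held for 401 of 577 peak sets (69.5%). Within 100 bp the numbers were 61 regions (91.0%) and 273 other sets (47.3%), and within 50 bp 43 regions (64.2%) and 134 other sets (23.2%).

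The distance between the outermost summits had a median of 42 bp (quartiles 26.5 and 58) in the 67 regions and of 107 bp (quartiles 53 and 279) in the other sets. It was smallest at *BIO1*, where the 3 summits fell within 3 bp. In the 62 regions with close summits it was at most 106 bp. No test was run on these distances, because genes that share peaks and libraries are not independent. Pileup differed between the sets as well, and its part in this difference was not tested.

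**Figure D4:**
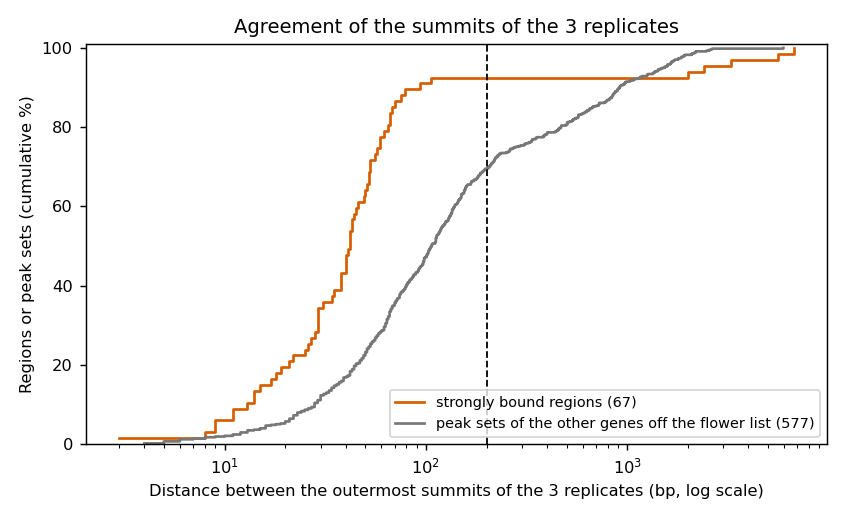
Cumulative share (%) of regions or peak sets by the distance between the outermost summits of the 3 replicates (bp, log scale). Of the 67 strongly bound regions, 92.5% lie left of the dashed line at 200 bp, against 69.5% of the 577 other sets.

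The peaks were wide. The mean width over replicates had a median of 3371 bp in the 67 regions, from 1018 bp at *AT5G06970* and *LNK4* to 8575 bp at *AT1G56320*, and of 872 bp in the other sets. All peaks of the 3 deposited lists had median widths of 416, 441 and 440 bp. Wider peaks had higher pileups (Spearman's rho = 0.654 over the 62 regions with close summits). A peak of this width can reach the upstream 2 kb of a gene while its summit lies farther away. Of the 89 genes, 71 (79.8%) had a single listed peak in every replicate, against 63.8% of the other genes.

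In 7 genes the listed summits lay over 200 bp apart, and the deposited lists were read at those places, a step added after the values were seen. In 6 of them the target table named a weak peak in 1 or 2 replicates. The list of that replicate held a strong peak over the summit of the others. That unlisted peak ended at a lower position than the strong peaks that were listed for the gene. Peaks were linked where they reached the upstream 2 kb, so these strong summits may lie outside it. Distances to gene starts were not computed, and this was not tested. *APC1* (*AT5G61810*), which encodes a mitochondrial ATP and phosphate carrier, was listed with 37, 41 and 531 fragments, while the lists held peaks of 470, 571 and 531 fragments there (524 ± 50.9), with summits at chromosome 5 positions 24829892, 24829873 and 24829895. The strong peaks not linked to *APC1* ended at positions 24834100 and 24833346 in replicates 1 and 2, and the linked one at 24834666. *AT1G07690* was listed with 33, 302 and 290, and the lists held 272, 302 and 290 (288 ± 15.1). *AT1G04985* was listed with 290, 35 and 332, and the peaks found were those of *PDIL2-2*. In these 3 genes the strongest listed peaks did not all overlap.

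The pseudogene *AT1G29650* was listed with 218, 52 and 278 fragments, and the lists held 218, 287 and 278 (261 ± 37.5). *ARF2*, an auxin response factor gene, and *AT5G61997* were listed with 192, 217 and 51, and the lists held 192, 217 and 213 (207 ± 13.4). The summits in the lists lay within 45 bp of each other in each of these 6 genes. Ranked by mean pileup, the peaks found for *APC1* would follow directly on those of *MYB11* and *AT1G56320*. Of these strong peaks only that of replicate 3 was linked to *APC1*. The place in the order is therefore one of peaks, and whether they concern *APC1* or a neighbour was not tested. With the lists read over the strongest listed summit, all 89 genes had a peak there in each of the 3 lists.

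The seventh gene was *SPL11*. Replicate 1 had a single peak of 10668 bp over chromosome 1 positions 9491460 to 9502127, with its summit at 9492839 and 294 fragments. Replicate 2 had a pair of peaks in its place, with summits at 9492839 (361 fragments) and 9499521 (276 fragments), and replicate 3 had summits at 9492837 (354 fragments) and 9499548 (308 fragments). The right-hand peaks were those listed for *SPL11* in replicates 2 and 3, which put its outermost summits 6709 bp apart. The summits of replicates 2 and 3 thus lay side by side at both places, and that of replicate 1 was at the left-hand one. The mean and SD of *SPL11* therefore join replicate 1 at the left-hand summit with replicates 2 and 3 at the right-hand one.

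**Figure D5:**
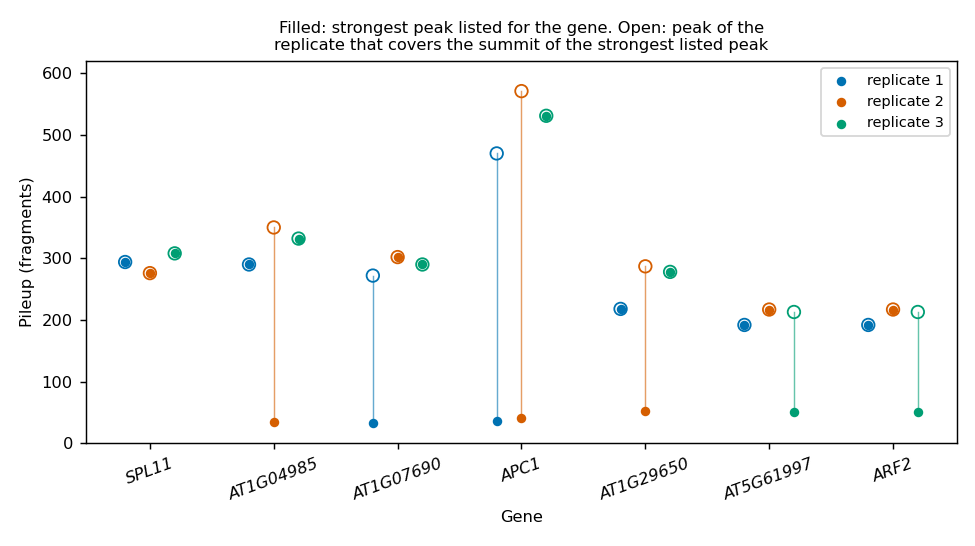
Pileup (fragments) of the strongest peak listed for each of 7 genes whose listed summits lay over 200 bp apart (filled) and of the peak in the same replicate's deposited list over the summit of the gene's strongest listed peak (open), in 3 replicates. The points of *APC1* at 37 and 41 move to 470 and 571, while those of *SPL11* stay in place.

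In the whole lists, 121, 137 and 147 peaks had at least 150 fragments, which is 2.68%, 3.05% and 3.39% of the peaks of the 3 replicates. Of these, 58, 65 and 65 (47.9%, 47.4% and 44.2%) were listed for the 89 genes, 11, 15 and 21 for other listed genes, and 52, 57 and 61 had no gene in the lines used, which leaves out any gene named for them in the rest of the table. The 89 genes held 50 of the 100 highest peaks of each list.

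Several regions lay beside genes of the ER machinery. A further list of 52 genes for ER folding and quality control, distinct from the ER role list above, was used here. Of its genes, 17 were named in the lines used, and 6 were among the 89. Of the 89 genes, 12 (13.5%), in 12 regions, had a gene of that list within 2 protein-coding places in the RefSeq order. Among the 682 other genes off the flower list this held for 6 (0.88%). The list was written after the values of the 89 genes were seen, so it may favour their neighbours. These counts therefore only describe which neighbours there were, and their difference was not tested. *MYB11* was next to *ERDJ3B*, the gene of an ER J-domain protein, which is on the flower list, *AT3G08960* was next to *ERDJ3A*, and *SPL11* was next to *AT1G27350*, which encodes a protein of the RAMP4 family at the translocon. *RBOHB* was next to *BiP3*, as given above.

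At 2 places were the calreticulin gene *CRT1* from *AT1G56320*, the UDP-sugar transporter gene *UTR1* from *APK2B*, the ER oxidase gene *ERO1* from *AT1G72270*, and the calnexin gene *CNX1*, which is on the flower list, from *APC1*. The paper picked *ERDJ3B* and *CNX1* from the targets of the ChIP-seq whose peaks are read here. It reports AtbZIP17 binding at both promoters in seedlings by ChIP with quantitative PCR as well. It also reports that heat raised both genes in wild-type flowers but had no significant effect on them in *bzip17* flowers. Whether the peaks of *MYB11* and *APC1* are the ones at these neighbours was not tested. *LpxA* (*AT4G29540*) and *SAE1A* (*AT4G24940*) lay at 2 places from *AT4G29520* and from the SEC61 gamma gene *AT4G24920*. The last pair of cases were *AT1G04985*, beside *PDIL2-2*, and *AT2G45060*, beside *SEC61 BETA*, whose neighbours were themselves among the 89. Together 16 of the 67 regions had a gene of the list of 52 ER genes as a member or within 2 places. That count was not made for the other genes. Most of these neighbours were not in the lines used, and which gene a peak serves cannot be told apart from its position in the lists.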

How the data were processed

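Peak lists of 3 anti-MYC ChIP samples were analysed. The input library entered only through peak calling. Per the study's methods and the labels, the authors trimmed reads with Skewer, dropped those under 50 bp, kept reads that Bowtie placed uniquely on TAIR10, took out duplicates, and ran MACS on every replicate by itself with the input as control (P value limit 0.001). Unique placement lowers pileups in repeated sequence, and removal of duplicates limits very high ones. The versions are not given in the sources used here. The pileup is a signal deposited by the authors, in fragments at the summit. The fold enrichment is a ratio over the local background, as deposited. The −log10 p-value and −log10 q-value of each peak are the authors' as well, and only the q-value was used, in 1 alternative. The lists carry no read totals, so the depth behind each value is unknown and counting intervals could not be given. Pileups were not rescaled between replicates.

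Genes were tied to peaks only through the peak names in the study's target table, which links peaks within 2 kb upstream. No value was taken from that table. For each gene the listed peak with the highest pileup was used in each replicate, and regions joined genes whose strongest peaks overlapped by at least 1 bp. Positions are 1-based. Gene names, classes and neighbour order came from the RefSeq table of the TAIR10.1 assembly, whose coordinates were not used. Error is the SD of 3 replicates. The members, role lists and comparisons were chosen with earlier results of these data known, and no test was run on what the rule used. Genes of the role lists are given by replicate if among the 30 highest pileups or in the ER role list. So are genes next to the limit and genes whose strongest peaks do not all overlap. The rest are given by range and example. The calculations used Python 3.11.15, pandas 2.3.3, NumPy 2.4.6 and SciPy 1.17.1 and were tested on simulated data, with figures drawn in matplotlib 3.10.9. The alternatives were other pileup limits, overlap and q-value conditions, fold enrichment in place of pileup, other summit limits, and leaving out each replicate. No sequence was used here, so the planned search for ER stress response elements in promoters was not run.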

Additional observations from a re-analysis of the deposited data

How the results depend on the processing

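Of 36 alternatives, 28 kept their counts within 1.5 times, or their values within the spread over replicates. With a limit of 100 fragments the genes numbered 172 in 133 regions, and with 200 fragments 51 in 38 regions, in place of 89 and 67. The median distance between outermost summits, 42 bp, became 335 bp as a mean, and 13.5 to 26.5 bp without 1 replicate, where fewer summits are spanned. Requiring 150 fragments in the lowest replicate left 72 genes, a mean of 10-fold enrichment 60, reciprocal overlap 79 and a q-value under 1e-05 in all 3 replicates 86, and leaving out 1 replicate gave 82 to 96. Reading the deposited lists over the strongest summit, an alternative chosen after seeing the data, gave 90 genes. The motif alternatives were not run. No paired analysis was possible because all samples belong to 1 condition. The unknown depth limits comparison of pileups between replicates.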
